A study of Arabidopsis thaliana with 18 samples.

Results

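The 10 genes described here encode the red and far-red light receptors phytochrome A (PHYA) and phytochrome B (PHYB), the basic helix-loop-helix (bHLH) factors PIF1, PIF3, PIF4, PIF5, PIF6, PIF7 and SPATULA (SPT), and the CCCH zinc finger protein SOMNUS (SOM). They were chosen by name as the phytochrome and PIF module of light-controlled germination, with earlier results of these data known. They are 10 of the 32833 genes in the deposited count table. All 10 passed the low-count filter. The study measured total RNA of Arabidopsis thaliana seeds by paired-end sequencing in 6 groups of 3 libraries, 18 in all. The groups were wild-type Col-0, the line labelled mkk3-1 and the line labelled mpk7_ko3, each as dry seeds and as seeds imbibed for 6 h. The lines carry the names of MKK3 and MPK7, an upstream and a downstream kinase of a MAP kinase cascade linked to seed dormancy. Per the labels, all seeds were freshly harvested from plants kept in a growth chamber under long days, and were sampled either at once or after 6 h on wet filter paper. The kind of mutation in each line, the number of independent lines and the light given during imbibition are not given in the sources used here. The labels do not say that the 3 libraries of a group came from separate plants or seed lots, so p-values measure the spread between libraries, which may be technical.

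Phytochromes are photoreceptors that red light converts to an active form and far-red light converts back. In seeds, PHYB is known for the rapid response to red light, and PHYA, which builds up during imbibition, for the response to very weak or far-red light. Active phytochrome enters the nucleus and drives the phosphorylation and breakdown of PIF proteins, which bind G-box and related DNA motifs. PIF1, also called PIL5, is known as the main PIF that holds back germination in the dark. It acts in part through SOM, which it activates directly and which favours abscisic acid over gibberellin. PIF6 has been linked to primary dormancy of the developing seed and SPT to dormancy and the response of germination to cold, while PIF3, PIF4, PIF5 and PIF7 are better known from seedlings, where they promote elongation in the dark, in shade or in warmth. This control lies largely in protein stability, which RNA counts do not measure.

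The 300 bases before the annotated start of each gene were read from the TAIR10.1 genome and searched on both strands for 4 motifs. The motifs were the G-box CACGTG, the PBE-box CACATG, the RY element CATGCA and the evening element AAATATCT. The G-box reads the same on both strands, while the PBE-box reads CATGTG, the RY element TGCATG and the evening element AGATATTT on the other strand. The first pair are PIF-binding motifs, the RY element is bound by seed regulators of the ABI3 family and the evening element by clock factors. Of 32546 windows of this length over all genes, 6.49% held a G-box, 13.2% a PBE-box, 10.6% an RY element and 5.39% an evening element. Among the 10 genes, a G-box was found before PHYB, PIF5 and SPT, a PBE-box before SOM and an RY element before PIF7, and the evening element before none. The windows of PHYB, PIF5, SPT and SOM are shown because they hold the letters of a motif that PIF proteins bind. They run 5' to 3' in the direction of transcription, with those letters in capitals. PHYB is at chr2:8139456-8139755 on the plus strand, PIF5 at chr3:21830838-21831137 on the minus strand, SPT at chr4:17413783-17414082 on the plus strand and SOM at chr1:953990-954289 on the plus strand.
PHYB: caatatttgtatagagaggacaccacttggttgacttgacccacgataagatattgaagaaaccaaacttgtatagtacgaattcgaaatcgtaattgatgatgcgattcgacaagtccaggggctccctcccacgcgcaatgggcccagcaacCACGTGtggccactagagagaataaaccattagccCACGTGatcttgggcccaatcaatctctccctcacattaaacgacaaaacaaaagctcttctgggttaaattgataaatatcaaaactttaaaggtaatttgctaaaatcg
PIF5: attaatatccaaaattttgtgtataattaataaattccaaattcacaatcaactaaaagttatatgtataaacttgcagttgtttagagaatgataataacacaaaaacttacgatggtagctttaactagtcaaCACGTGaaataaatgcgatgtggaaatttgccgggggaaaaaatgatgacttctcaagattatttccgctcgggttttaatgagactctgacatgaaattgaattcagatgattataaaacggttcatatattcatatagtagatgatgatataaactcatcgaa
SPT: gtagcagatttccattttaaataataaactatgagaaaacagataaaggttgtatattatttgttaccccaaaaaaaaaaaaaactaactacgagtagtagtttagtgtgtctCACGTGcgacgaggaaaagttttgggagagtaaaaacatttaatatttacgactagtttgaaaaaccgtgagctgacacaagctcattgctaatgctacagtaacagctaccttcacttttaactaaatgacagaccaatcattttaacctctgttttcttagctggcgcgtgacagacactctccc
SOM: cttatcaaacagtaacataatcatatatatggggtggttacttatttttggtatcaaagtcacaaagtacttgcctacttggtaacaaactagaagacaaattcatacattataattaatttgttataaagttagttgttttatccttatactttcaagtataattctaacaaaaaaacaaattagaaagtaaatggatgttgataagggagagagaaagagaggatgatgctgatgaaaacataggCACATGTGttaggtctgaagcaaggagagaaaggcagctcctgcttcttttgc
The window of PHYB held a pair of G-boxes, which began 146 and 111 bases before the start. The G-box of PIF5 began at 165 bases and that of SPT at 187 bases before the start. The SOM window held 2 overlapping PBE-box matches, on opposite strands, which began 53 and 51 bases before the start and form the 8 letters CACATGTG. The matches are descriptions of the letters and show no binding.

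The libraries held 18249333 to 21036275 counts each, with a common coefficient of biological variation of 0.104. MPK7 was at 14.7 CPM (counts relative to the library total, scaled with TMM factors) in dry and 12.9 CPM in imbibed mpk7_ko3 seeds, against 41.3 and 35.2 CPM in Col-0, log2 differences of -1.49 and -1.45 (adjusted p = 1.32e-08 and 1.13e-08). MKK3 was at 7.36 CPM in dry mkk3-1 seeds against 17.4 CPM in Col-0 (log2 difference -1.24, adjusted p = 4.43e-07), but at 11.8 against 13.3 CPM after imbibition (-0.18, adjusted p = 0.307). The MKK3 level thus set mkk3-1 apart from Col-0 only in dry seeds. All 6 seed markers were abundant in every group, with a lowest group mean of 218 CPM (SESA1). In Col-0 imbibition all 6 were lower (median -1.16), but CRA1, CRU3 and SESA1 lost the call when scaled by library totals. The summed level of the 6 was 68887 to 79042 CPM in dry and 36352 to 38981 CPM in imbibed Col-0 libraries. In dry mkk3-1 it was 53460 to 63951 CPM, below the Col-0 range, and in dry mpk7_ko3 48123 to 76570 CPM. None of the 6 was called between either dry mutant and Col-0. None of the 5 seed coat markers exceeded a group mean of 3.58 CPM (MUM4), and AP3, a flower marker, was at most at 0.0922 CPM. Of the 5 green tissue markers, RBCS1A went from 28.7 CPM in dry to 108 CPM in imbibed Col-0 seeds and LHCB5 from 6.34 to 0.504 CPM. In Col-0 imbibition 3 of them were higher, 1 was lower and CAB1 was not called (median 0.94), and their summed level was 38.9 to 47.8 CPM in dry and 118 to 143 CPM in imbibed Col-0 libraries. The part of the seed and green tissue markers in the changes on imbibition and in the dry differences between lines was not tested. In both states the third mpk7_ko3 library lay apart from the other two on the second principal component, at -16.8 against 36.8 and 34.7 when dry, and at -11.6 against 13.4 and 18.5 when imbibed. In bulk samples, fewer cells of a type and less RNA per cell cannot be told apart.

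Imbibition for 6 h changed 8 of the 10 genes in Col-0. PHYA, PIF1 and PIF4 rose by 2.06-, 3.32- and 3.56-fold, SPT by 1.89-fold and PHYB by 1.21-fold. SOM and PIF7 fell by 2.68-fold and PIF5 by 2.88-fold, while PIF3 and PIF6 did not pass the test. Of all 17758 genes tested, 74.9% passed in this comparison, 38.8% as higher and 36.1% as lower, so 5 of 10 higher and 3 of 10 lower is near the background. The share of all genes whose libraries did not overlap is not given, here or for any comparison below. The median log2 change of the 10 genes was 0.26 and that of all genes 0.06. With library totals in place of TMM factors the median of all genes was 0.66 and 75.9% of calls were higher, against 51.8% with TMM factors. Of the 10 genes, 7 were then higher and 3 lower, with PIF3 and PIF6 among the higher, and the 8 genes called with TMM factors kept their direction.

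**Figure D1:**
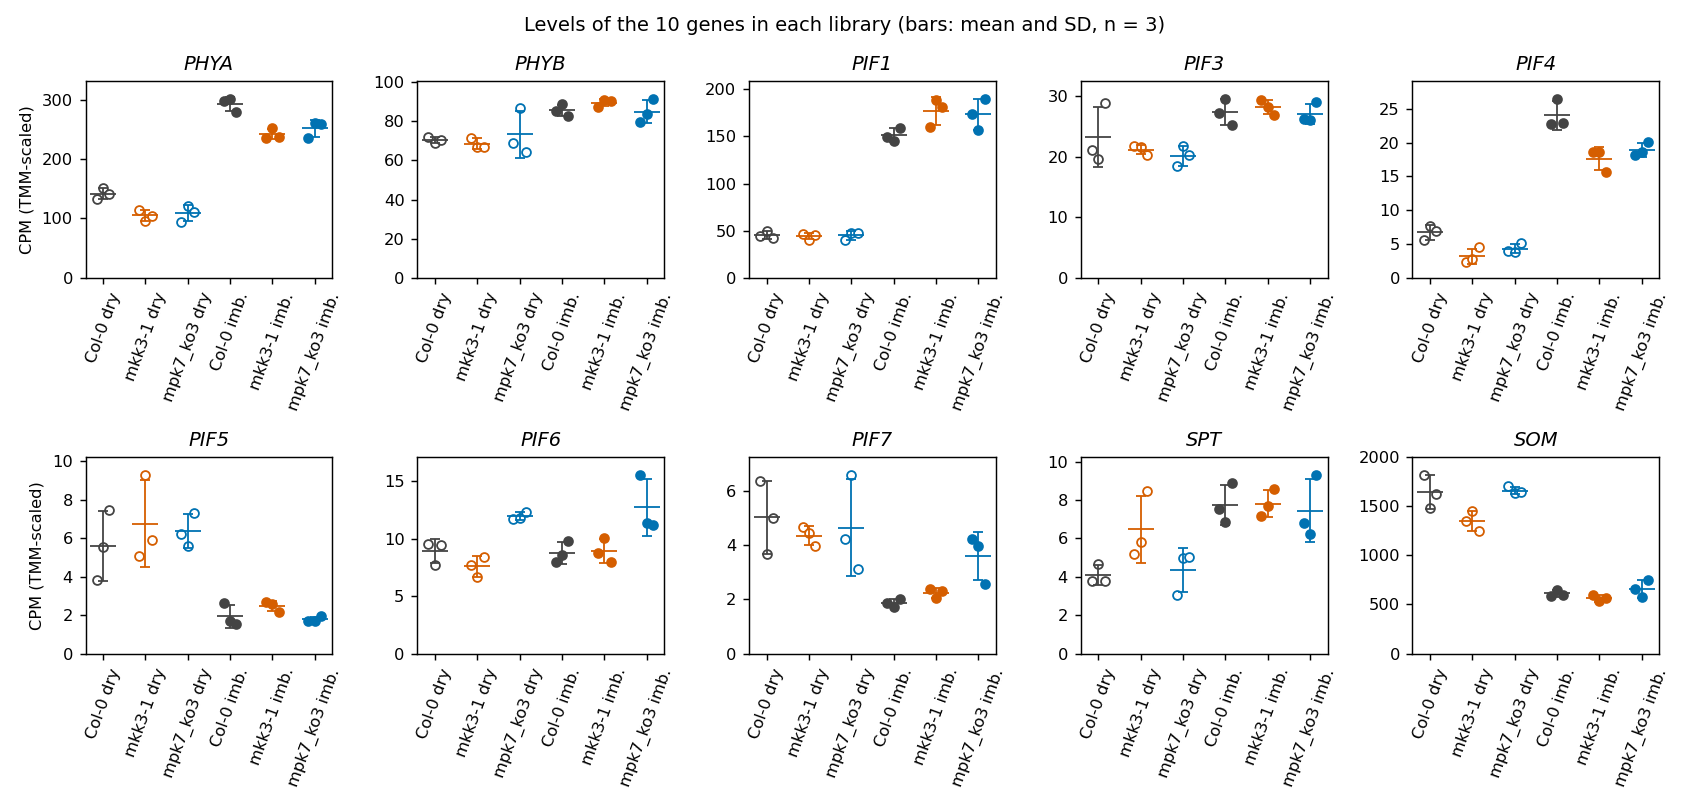
TMM-scaled CPM of each of the 10 genes (one panel each, vertical axis from 0) in the 18 libraries by group. Open points are dry and filled points imbibed libraries, and bars give the mean and SD (n = 3). PHYA, PIF1 and PIF4 are higher in every imbibed library than in any dry one, and SOM and PIF5 are lower in every imbibed library.

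Among the receptors, PHYA (AT1G09570, chr1:3095160-3100819, minus strand) was at 134, 151 and 142 CPM in the dry Col-0 libraries and at 297, 302 and 279.9 CPM in the imbibed ones. The ranges were far apart, and the log2 change was 1.04 ± 0.0874 (SE, adjusted p = 7.79e-10, edgeR quasi-likelihood test with Benjamini-Hochberg adjustment over all genes, as for every adjusted p below). PHYB (AT2G18790, chr2:8139756-8144461, plus strand), whose window holds the 2 G-boxes shown, went from 72.1, 68.8 and 70.5 CPM to 85.1, 88.8 and 82.9 CPM. The ranges did not overlap and the change was small, 0.28 ± 0.0852 on the log2 scale (adjusted p = 0.00562).

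Of the bHLH factors that rose, PIF1 (AT2G20180, chr2:8704024-8707009, minus strand) went from 44.9, 50.2 and 41.9 CPM in dry Col-0 to 149, 146 and 159 CPM in imbibed Col-0. Its log2 change of 1.73 ± 0.0948 (adjusted p = 9.3e-13) came with every imbibed library far above every dry one. PIF4 (AT2G43010, chr2:17886101-17889087, plus strand) was a low gene in dry seeds, at 5.55, 7.71 and 6.93 CPM, and was at 22.7, 26.5 and 22.9 CPM after imbibition. The ranges did not overlap, with a log2 change of 1.83 ± 0.155 (adjusted p = 9.24e-10). SPT (AT4G36930, chr4:17414083-17416386, plus strand) went from 3.77, 4.68 and 3.79 CPM to 7.53, 6.84 and 8.87 CPM. All imbibed values were above the dry ones, and the log2 change was 0.92 ± 0.212 (adjusted p = 0.000578).

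PIF5 and PIF7 fell. PIF5 (AT3G59060, chr3:21827905-21830837, minus strand) was at 3.84, 5.51 and 7.45 CPM in dry Col-0 and at 2.63, 1.68 and 1.52 CPM in imbibed Col-0. The dry libraries were widely spread, yet none reached down to the imbibed range (log2 change -1.53 ± 0.266, adjusted p = 2.83e-05). PIF7 (AT5G61270, chr5:24638491-24640765, minus strand) went from 6.37, 3.68 and 5.01 CPM to 1.85, 1.72 and 2.01 CPM. The ranges did not overlap (log2 change -1.42 ± 0.264, adjusted p = 5.82e-05), on a mean of 45.7 counts per imbibed library.

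PIF3 and PIF6 gave no call. PIF3 (AT1G09530, chr1:3075768-3079654, plus strand) was at 21.1, 19.6 and 28.9 CPM dry and at 27.2, 29.5 and 25.3 CPM imbibed. The ranges overlapped through the third dry library, and the log2 change was 0.24 ± 0.112 (adjusted p = 0.0628). Without that library it was 0.43 (adjusted p = 0.000813), without the third imbibed library 0.29 (0.0437), with upper-quartile factors 0.40 (0.00325) and with library totals 0.83 (3.9e-06). PIF6 (AT3G62090, chr3:22988547-22990709, minus strand) was at 9.59, 7.71 and 9.44 CPM dry and at 7.94, 8.60 and 9.78 CPM imbibed, with overlapping ranges. Its log2 change of -0.02 had a 95% interval from -0.32 to 0.28 (adjusted p = 0.904), and with library totals it turned to 0.58 (adjusted p = 0.00194).

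SOM (AT1G03790, chr1:954290-956144, plus strand), the target of PIF1 in the dark, was by far the most abundant of the 10. The dry Col-0 libraries held 1820.2, 1477 and 1623 CPM and the imbibed ones 588, 651 and 595 CPM. All imbibed values were far below the dry ones, and the log2 change was -1.42 ± 0.103 (adjusted p = 7.42e-11). PIF1 and SOM moved in opposite directions over the same 6 h.

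**Figure D2:**
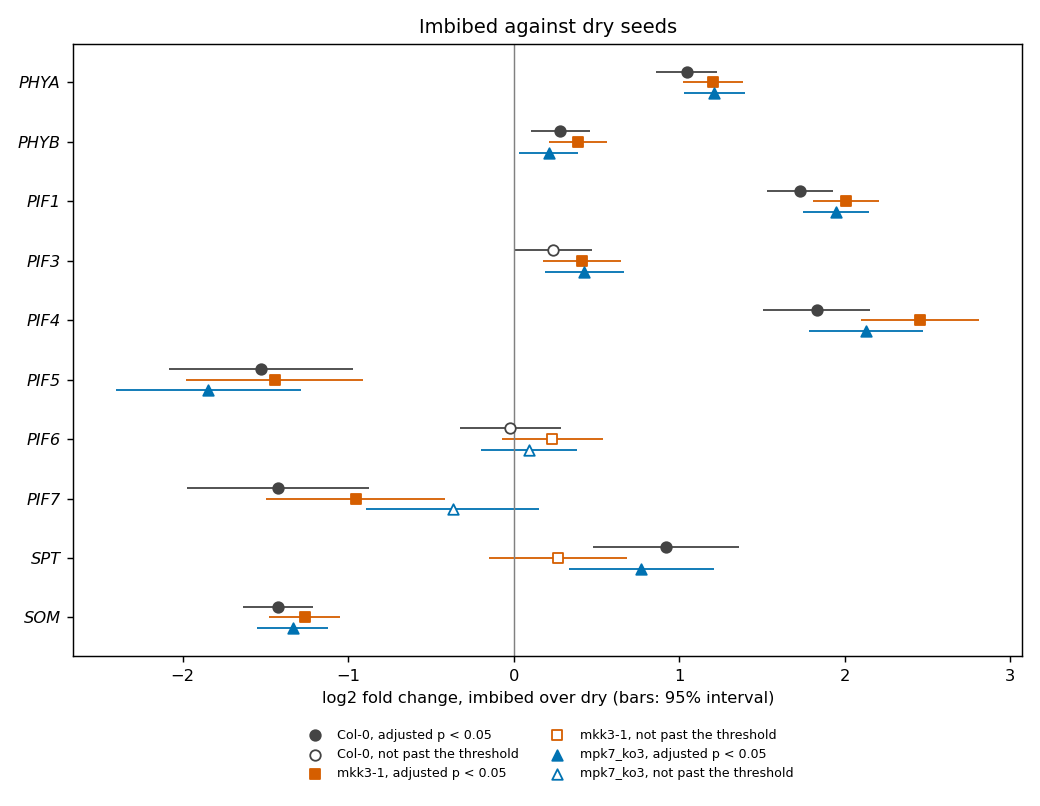
Log2 fold change, imbibed over dry seeds, of each of the 10 genes in Col-0, mkk3-1 and mpk7_ko3, with the 95% interval as a bar. Filled points passed an adjusted p of 0.05. PHYA, PHYB, PIF1 and PIF4 lie right of 0 and SOM and PIF5 left of 0 in all 3 genotypes. PIF7, SPT and PIF3 differ in call between genotypes.

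Between genes, levels were compared per kb of the deposited merged exon length. Per kb, dry Col-0 seeds held 884 CPM of SOM, which ranked 107 among the 32833 genes, against 27.8 CPM of PHYA, 19.5 of PIF1 and 15.6 of PHYB. After imbibition SOM was at 330 CPM per kb (rank 177), PIF1 at 64.6 (from rank 4947 to 1234) and PHYA at 57.3 (from rank 3693 to 1412). PIF3, PIF4, PIF5, PIF6, PIF7 and SPT had between 2.19 and 8.40 CPM per kb in dry seeds and between 0.759 and 9.89 in imbibed seeds. The ratio of SOM to PIF1 per length was 45.8 ± 7.57 (SD, n = 3) in dry Col-0 and 5.11 ± 0.482 in imbibed Col-0.

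The make-up of both families shifted with imbibition. Of the summed level of the 7 bHLH genes per length, PIF1 held 45.7% ± 4.85 in dry Col-0 and 68.0% ± 1.37 in imbibed Col-0, while the sum went from 42.6 ± 1.35 to 95.04 ± 2.91 CPM per kb. PIF4 took 6.07% and then 9.75%. The shares of PIF3, PIF6, PIF7 and PIF5 went from 19.6% to 10.4%, from 11.6% to 5.11%, from 6.05% to 1.00% and from 5.10% to 0.802%. Among the 5 phytochrome genes the sum was 145 ± 8.55 CPM per kb dry and 134 ± 6.67 imbibed, and PHYA went from 19.3% ± 2.21 to 42.7% ± 0.491 of it. PHYB went from 10.8% to 14.1%. PHYE and PHYD, which like PHYB are light-stable, went from 35.6% to 22.1% and from 27.9% to 13.4%. These shares are descriptions without a test, and library scaling cancels within each. It does not cancel in the sums, which were computed with TMM factors only. In Col-0 imbibition the median log2 change of all genes was 0.06 with TMM factors and 0.66 with library totals. The phytochrome sums of dry and imbibed Col-0 libraries overlapped, at 138.49 to 154.46 and 126.63 to 138.71 CPM per kb. Their means were 131.58 and 133.16 in mkk3-1 and 144.96 and 134.92 in mpk7_ko3. The sums were not recomputed with library totals, so a fall of the phytochrome sum is not shown.

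**Figure D3:**
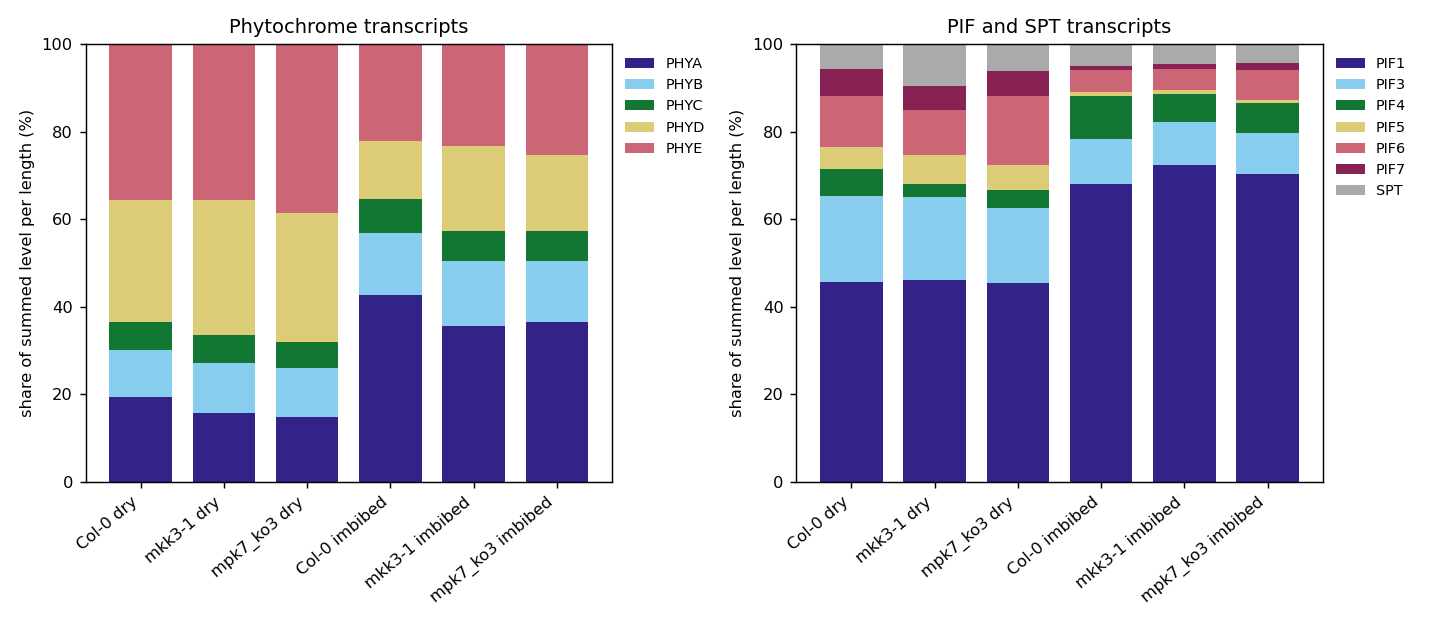
Mean share (percent, stacked from 0) of each phytochrome gene and of each PIF gene and SPT in the summed level per length of its family, by group (n = 3 libraries). PIF1 goes from 45.7% to 68.0% and PHYA from 19.3% to 42.7% between dry and imbibed Col-0, and the PHYA share is lower in both mutants in both states.

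The same comparison in mkk3-1 changed 8 of the 10 genes, 5 higher and 3 lower, where 73.3% of all genes passed, 37.5% as higher and 35.8% as lower (75.2% of calls higher with library totals, 51.1% with TMM factors). In mpk7_ko3 it changed 8 as well, 6 higher and 2 lower, where 72.5% of all genes passed, 37.6% as higher and 34.9% as lower (75.8% and 51.9% of calls higher). PHYA rose by 1.20 and 1.21 on the log2 scale in mkk3-1 and mpk7_ko3 (adjusted p = 1.03e-10 and 9.37e-11), PIF1 by 2.01 and 1.95 (1.23e-13 and 1.95e-13) and PIF4 by 2.46 and 2.13 (4.86e-11 and 2.8e-10). SOM fell, with log2 changes of -1.26 and -1.34 (5.3e-10 and 2.24e-10), as did PIF5 with -1.44 and -1.84 (3.74e-05 and 2.97e-06). PIF3 passed in both mutants, with 0.41 and 0.43 (0.00262 and 0.0021).

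PHYB rose by 0.39 in mkk3-1 (adjusted p = 0.000369) and by 0.21 in mpk7_ko3 (0.0306). The mpk7_ko3 call was not firm: dry libraries were at 68.9, 87.0 and 64.2 CPM and imbibed ones at 79.8, 83.6 and 91.5 CPM, with overlap. It was lost with DESeq2 size factors (0.0753), with DESeq2 (0.0773), in a fit of the compared libraries alone (0.118), and without the first or the third dry library or the third imbibed library (0.159, 0.199 and 0.135). Without the third library of both states the change was 0.07 (adjusted p = 0.519).

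SPT and PIF7 were called in 2 of the 3 genotypes each. SPT rose by 0.77 in mpk7_ko3 (adjusted p = 0.0027), but in mkk3-1 the dry libraries were at 5.17, 5.82 and 8.45 CPM and the imbibed ones at 7.16, 7.70 and 8.58 CPM. The mkk3-1 ranges overlapped through the third dry library, and the log2 change of 0.27 had a 95% interval from -0.15 to 0.69 (adjusted p = 0.232). Without that library it was 0.51 (adjusted p = 0.0394), and with library totals 0.82 (0.00164). PIF7 fell in mkk3-1, with -0.95 ± 0.26 (adjusted p = 0.00255, but -0.40 and 0.155 with library totals). In mpk7_ko3 PIF7 was at 4.21, 6.60 and 3.11 CPM dry and at 4.22, 3.96 and 2.57 CPM imbibed. These ranges overlapped, with a log2 change of -0.37 and a 95% interval from -0.89 to 0.15 (adjusted p = 0.193). Without the third dry library it was -0.59 (adjusted p = 0.0412), and with library totals 0.19 (0.496). PIF6 was not called in either mutant, at 0.23 in mkk3-1 (0.159) and 0.09 in mpk7_ko3 (0.571). With library totals it was 0.78 and 0.64 (adjusted p = 0.000112 and 0.000534), and with upper-quartile factors 0.39 in mkk3-1 (0.0244).

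Whether the response itself differed was tested as the mutant response minus the Col-0 response. None of the 10 genes passed for mkk3-1, where 0.124% of all genes did (0.0788% higher, 0.0451% lower, with 63.6% of calls higher and 50% with library totals), or for mpk7_ko3, where 0.00563% did, and none passed with DESeq2. An unadjusted edgeR p below 0.05 was reached for mkk3-1 by PIF4 (0.63 ± 0.234, adjusted p = 0.406), SPT (-0.65 ± 0.293, adjusted p = 0.518) and PIF1 (0.28 ± 0.131, adjusted p = 0.553). For mpk7_ko3 it was reached by PIF7, at 1.06 ± 0.363 (adjusted p = 0.471) with a 95% interval from 0.30 to 1.81. The share of all genes below that unadjusted level was not computed. The differing calls of SPT and PIF7 between genotypes are thus not shown to be differing responses.

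The comparisons of the mutants with Col-0 share the Col-0 libraries and are given side by side. In dry seeds PHYA and PIF4 were lower in mkk3-1 and PHYA was lower in mpk7_ko3. These are 2 and 1 of the 10 genes, where 2.08% of all genes passed for mkk3-1 (0.687% higher, 1.4% lower) and 2.76% for mpk7_ko3 (0.653% higher, 2.11% lower). The median log2 difference of the 10 genes was -0.17 in mkk3-1 and -0.0030 in mpk7_ko3, and that of all genes -0.0026 in mkk3-1. With library totals, 51.3% of the calls in dry mkk3-1 were higher, against 33% with TMM factors.

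PHYA was at 115, 95.9 and 104 CPM in dry mkk3-1 and at 94.2, 122 and 111 CPM in dry mpk7_ko3, against 134 to 151 CPM in dry Col-0. Every mutant library was below every Col-0 library. The log2 differences were -0.43 ± 0.0879 (1.35-fold, adjusted p = 0.0106) and -0.39 ± 0.088 (1.31-fold, adjusted p = 0.0196). The mkk3-1 call was lost with library totals (-0.38, 0.0832) and without the second dry Col-0 library (-0.39, 0.0546). The mpk7_ko3 call was lost with library totals (0.0759), in a fit of the compared libraries alone (0.155), and without the second or the third dry Col-0 library (0.124 and 0.0605) or the first dry mpk7_ko3 library (0.0794).

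PIF4 showed the largest difference of the 10 genes in dry seeds. Dry mkk3-1 libraries were at 2.41, 2.72 and 4.49 CPM and dry mpk7_ko3 libraries at 3.999, 3.86 and 5.08 CPM, all below the lowest Col-0 value of 5.55 CPM. In mkk3-1 the difference was -1.07 ± 0.189 (2.099-fold, adjusted p = 0.00364), on a mean of 54.0 counts, and it passed in each alternative run. In mpk7_ko3 it was -0.64 ± 0.183 and did not pass (adjusted p = 0.0657). It passed there with DESeq2 (0.0179), without the low-count filter (0.0255), without the first dry Col-0 library (0.0349), and at -0.78 without the third mpk7_ko3 library of both states (0.0458).

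Among other dry differences that did not pass, some had libraries that did not overlap. The share of all genes with such libraries is not given, so this is not set against a background. SPT was higher in mkk3-1 at 5.17 to 8.45 CPM against 3.77 to 4.68 CPM (0.66 ± 0.22, adjusted p = 0.132). SOM was at 1349, 1455 and 1248.5 CPM in mkk3-1 against 1477 to 1820.2 CPM in Col-0 (-0.28 ± 0.101, adjusted p = 0.167). In mpk7_ko3 SOM was at 1704, 1629 and 1642 CPM, inside the Col-0 range, with an interval of the difference from -0.19 to 0.23. PIF6 was at 11.7, 11.8 and 12.4 CPM in dry mpk7_ko3, above the Col-0 range of 7.71 to 9.59 CPM (0.43 ± 0.147, adjusted p = 0.13).

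**Figure D4:**
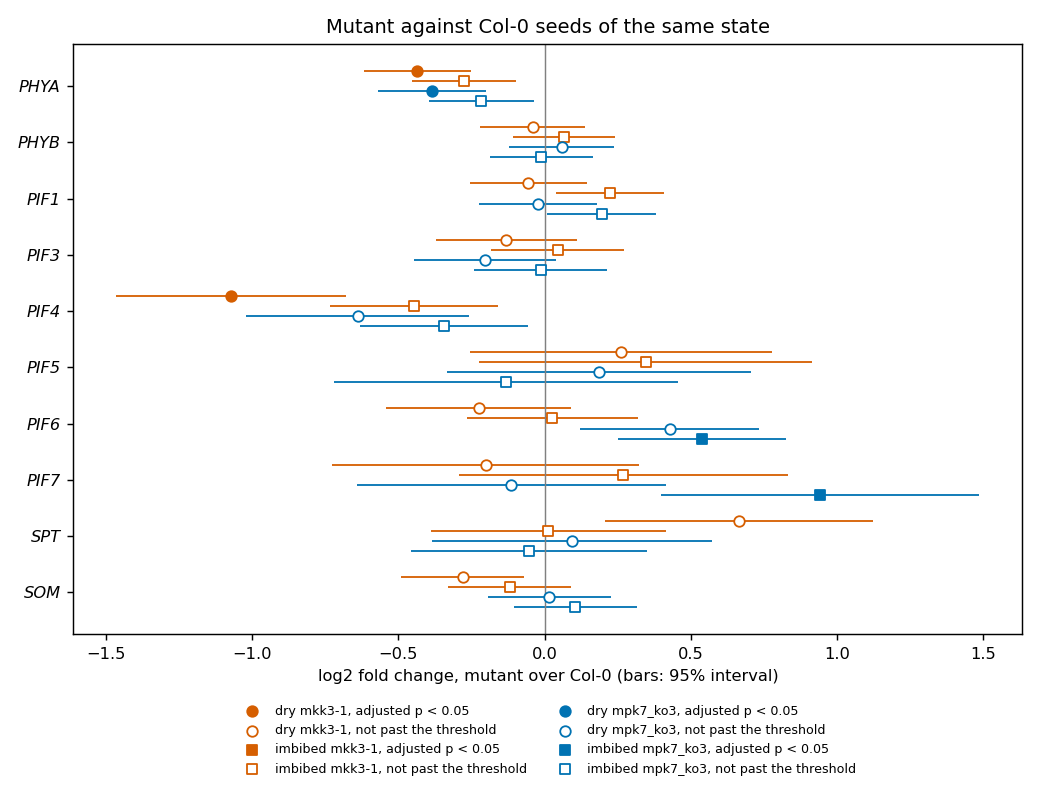
Log2 difference of each of the 10 genes between each mutant and Col-0 in dry and in imbibed seeds, with the 95% interval as a bar. Filled points passed an adjusted p of 0.05. They are PHYA and PIF4 in dry mkk3-1, PHYA in dry mpk7_ko3, and PIF6 and PIF7 in imbibed mpk7_ko3.

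In imbibed seeds PIF6 and PIF7 were higher in mpk7_ko3 than in Col-0, and no gene of the 10 passed in mkk3-1. Of all genes, 9.84% passed for mpk7_ko3 (5.12% higher, 4.72% lower, with 52% of calls higher and 37.6% with library totals) and 7.95% for mkk3-1 (3.63% higher, 4.32% lower). PIF6 was at 15.6, 11.4 and 11.2 CPM in imbibed mpk7_ko3 against 7.94, 8.60 and 9.78 CPM in Col-0. The ranges did not overlap (0.54 ± 0.138, 1.45-fold, adjusted p = 0.0163), but the call was lost without the first or second imbibed Col-0 library (0.0829 and 0.0582), and without the first imbibed mpk7_ko3 library it was 0.37 (adjusted p = 0.134). PIF7 was at 4.22, 3.96 and 2.57 CPM against 1.85, 1.72 and 2.01 CPM. These ranges did not overlap either (0.94 ± 0.261, 1.92-fold, adjusted p = 0.0256). The PIF7 call was lost without the first, the second or the third imbibed Col-0 library (0.0785, 0.0909 and 0.0631) and without the first or second imbibed mpk7_ko3 library (0.122 and 0.0783). Green tissue markers summed to 66.5 to 86.8 CPM in imbibed mpk7_ko3 and 101 to 117 CPM in imbibed mkk3-1 libraries, below the imbibed Col-0 range in both. Of the 5, RBCS1A was called lower in mpk7_ko3 (60.3 against 108 CPM, -0.84, adjusted p = 0.00282) and RBCS3B in mkk3-1 (3.03 against 6.32 CPM, -1.06, 0.0353). Their part in these results and in those of the pathway lists was not tested.

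In imbibed mkk3-1, PHYA, PIF1 and PIF4 reached an unadjusted p below 0.05. The share of all genes below that level was not computed, so this is not set against a background. The same holds for libraries that did not overlap. PHYA was at 236, 252 and 238 CPM against 279.9 to 302 CPM in Col-0, all below it (-0.27 ± 0.0858, adjusted p = 0.053). PIF4 was at 18.7, 18.5 and 15.7 CPM against 22.7 to 26.5 CPM, again all below (-0.45 ± 0.138, adjusted p = 0.0512). PIF1 was at 160.4, 189 and 181 CPM against 146 to 159 CPM, all above (0.22 ± 0.0893, adjusted p = 0.142). PHYA and PIF4 passed with DESeq2 (0.0219 for both), with upper-quartile factors (0.0491 and 0.0488) and in a fit of the compared libraries alone (0.00817 and 0.00395). PIF4 also passed without the low-count filter (0.0301), and PIF1 in the fit of the compared libraries alone (0.0249). In imbibed mpk7_ko3, PHYA at 236, 260.7 and 260.1 CPM and PIF4 at 18.2, 18.5 and 20.1 CPM were also below every Col-0 library. They did not pass, at -0.22 (adjusted p = 0.123) and -0.34 (adjusted p = 0.126, 0.0284 in the fit of the compared libraries alone). For SOM the 95% intervals of the imbibed differences ran from -0.33 to 0.09 in mkk3-1 and from -0.11 to 0.31 in mpk7_ko3.

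The shares within the families depend on all genes of each sum, not only on these levels. PHYA held 42.3% to 43.2% of the summed phytochrome level in imbibed Col-0, 34.1% to 36.6% in mkk3-1 and 35.4% to 37.5% in mpk7_ko3. PHYD held a mean of 13.4%, 19.2% and 17.5% in the same order. The ratio of PHYA to PHYB per length was 3.03 ± 0.0569 in imbibed Col-0, 2.39 ± 0.0665 in mkk3-1 and 2.63 ± 0.123 in mpk7_ko3, and in dry seeds 1.79 ± 0.151, 1.36 ± 0.0753 and 1.33 ± 0.174. In neither state did the mutant values overlap those of Col-0, which is a description without a test or a background. PIF4 held 9.75% ± 1.02 of the summed bHLH level in imbibed Col-0, 6.54% ± 0.794 in mkk3-1 and 6.95% ± 0.425 in mpk7_ko3. PIF1 held 66.5% to 69.1%, 70.03% to 73.8% and 69.5% to 71.6% in the same order.

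Between the mutants, PIF6 was called in dry seeds. It was higher in mpk7_ko3, at 11.7 to 12.4 CPM, than in mkk3-1, at 7.76, 6.64 and 8.39 CPM (0.65 ± 0.148, 1.57-fold, adjusted p = 0.0381), where 1.21% of all genes passed (0.445% higher, 0.766% lower, with 36.7% of calls higher and 19.5% with library totals). The ranges were apart, yet the call was lost with library totals (0.0599), in a fit of the compared libraries alone (0.128), and without any of 5 of the 6 libraries (0.0592 to 0.106). In imbibed seeds none of the 10 passed, where 0.338% of all genes did (0.208% higher, 0.13% lower, with 61.7% of calls higher and 43.4% with library totals), and DESeq2 also called none. An unadjusted p below 0.05 was reached there by PIF6 (0.51 ± 0.138, adjusted p = 0.117), PIF7 (0.67 ± 0.256, adjusted p = 0.305) and SOM (0.22, adjusted p = 0.418). The share of all genes below that level in imbibed seeds was not computed. PIF6 passed there without the third mpk7_ko3 library of both states (0.60, adjusted p = 0.0347), and SOM passed between dry mutants with DESeq2 (0.31, adjusted p = 0.0375).

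PIF6 overlaps the gene AT3G62080 on the opposite strand by 231 bases, and the strand setting of the counting is not given, so reads of the overlap cannot be told apart. AT3G62080 held a mean of 157 counts per library against 200.5 for PIF6. It was at 7.14, 8.23 and 8.62 CPM in dry and at 6.91, 7.65 and 8.09 CPM in imbibed Col-0, mkk3-1 and mpk7_ko3, and it passed in none of the 11 comparisons. A second opposite-strand gene, AT3G09745, spans 2083 bases of PIF6 and held 1.89 counts. PIF7 shares 318 bases with AT5G61260 (3.06 counts) and PIF1 334 bases with AT2G20170 (0.11 counts). The part of these overlaps in the PIF6 and PIF7 results was not tested.

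Ordered by group mean, PHYA ran from imbibed Col-0 (293 ± 11.5 CPM) over imbibed mpk7_ko3 (252 ± 14.2), imbibed mkk3-1 (242 ± 8.59), dry Col-0 (142.1 ± 8.60) and dry mpk7_ko3 (109 ± 13.9) to dry mkk3-1 (105 ± 9.60). The mutants overlapped each other within each state, and all other neighbours were apart. PIF4 had the same order and the same breaks, from 24.03 ± 2.11 CPM in imbibed Col-0 to 3.21 ± 1.12 CPM in dry mkk3-1. PIF1 had a single break, between the imbibed groups (177 ± 14.8, 173 ± 16.6 and 151 ± 7.15 CPM in mkk3-1, mpk7_ko3 and Col-0) and the dry ones (43.9 to 45.6 CPM). PIF5 also had a single break, between dry groups (5.60 to 6.75 CPM) and imbibed ones (1.77 to 2.47 CPM). SOM broke below dry Col-0 (1640.0 ± 172 CPM) and below dry mkk3-1 (1351 ± 103), with 563 to 657 CPM in the imbibed groups. PIF6 had its break between both mpk7_ko3 groups (12.7 ± 2.48 and 11.96 ± 0.363 CPM) and the other four (7.60 to 8.93 CPM). PIF7 broke above and below imbibed mkk3-1 (2.24 ± 0.182 CPM), with imbibed mpk7_ko3 at 3.58 ± 0.888 and imbibed Col-0 at 1.86 ± 0.147 CPM. SPT broke between dry mkk3-1 (6.48 ± 1.74 CPM) and dry mpk7_ko3 (4.35 ± 1.14). For PHYB (68.5 to 89.6 CPM) and PIF3 (20.1 to 28.2 CPM) each group overlapped the next. How often such breaks occur among all genes is not given here.

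The genes most like 5 of the 10 were found by Pearson correlation of log2 CPM over the 18 libraries, among 12351 genes with a mean of at least 5 CPM. The libraries share 3 per group and the contrast of dry with imbibed seeds, so high values are common. For PHYA they were MSL9 (r = 0.993), PCK1 (0.989) and scpl35 (0.989), with 2393 genes above 0.9. For PIF1 they were VDAC4 (0.993), MEE8 (0.993) and STT3B (0.992), with 2670 genes above 0.9. For SOM they were AT5G16200 (0.994), BRG3 (0.994) and AT2G31985 (0.993), with 3140 above. PHYB had 28 such genes, led by TOC159 (0.942), AT4G32640 (0.930) and GSL05 (0.928). PIF6 had 0, and its nearest were COB (0.827), UBC13 (0.795) and AT2G28540 (0.766).

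Around the 10 genes, 5 lists of their pathway were read for Col-0 imbibition, where 74.9% of all genes passed, 38.8% higher and 36.1% lower. The lists were chosen with earlier results of these data known. Of the phytochromes and their partners, 8 of 10 listed genes were tested, with 3 higher, 4 lower and a median log2 change of -0.05. PCH1, which holds PHYB in its active form, went from 6.24 to 35.9 CPM (2.52 ± 0.142, adjusted p = 1.39e-12), and HMR, needed for phytochrome signalling in the nucleus, from 29.1 to 79.7 CPM (1.46 ± 0.0894, 5.5e-12). PHYD fell from 169.9 to 75.7 CPM (-1.17 ± 0.109, 4.67e-09), and PHYE from 202 to 116 CPM (-0.80 ± 0.0960, 2.16e-07, but -0.20 and 0.0575 with library totals). The falls of FHY1 and FHY3, which serve PHYA, were lost with upper-quartile factors, and with library totals FHY3 turned to a rise of 0.35, FHY1 to 0.13 without a call, and the list to 5 higher and 1 lower.

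Of 9 PIF-related bHLH factors 3 were tested. PAR1, an inhibitor of bHLH factors, went from 0.123 to 1.12 CPM (3.08 ± 0.714, adjusted p = 0.000612), HEC1 rose as well from 0.0412 to 0.651 CPM, and PIL1 at 0.840 and 0.506 CPM was not called. In the COP1, SPA, DET1 and HY5 group, the ubiquitin ligase machinery and its targets, 15 of 16 were tested, with 3 higher, 8 lower and a median of -0.32. Its largest changes were those of the B-box factor BBX25 (4.65 to 0.640 CPM, -2.85 ± 0.288, adjusted p = 1.47e-08), the bZIP factor HYH (4.72 to 18.4 CPM, 1.96 ± 0.160, 5.14e-10), and of 2 more B-box factors, BBX22 (104 to 50.3 CPM, -1.05 ± 0.0772, 1.01e-10) and BBX21 (121.8 to 67.7 CPM, -0.85 ± 0.0820, 7.9e-09). The direction of this group depended on scaling. With library totals 10 were higher and 3 lower, and COP1 turned from -0.32 to 0.28.

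Of the 16 genes listed as downstream of PIF1 and SOM in seeds all were tested, with 6 higher, 8 lower and a median of -0.44 (8, 7 and 0.15 with library totals). The name is a label of the list, called the downstream list below. It also holds ABI3, RVE1 and RVE2, which are not taken here as targets of PIF1 or SOM. The gibberellin synthesis genes GA3OX1 and GA3OX2 had no read in any dry Col-0 library and stood at 2.69 and 4.12 CPM after imbibition, at least 13.99-fold higher for GA3OX1 and at least 21.48-fold higher for GA3OX2 when each dry library is set to 3 counts. RGA, a DELLA repressor that PIF1 activates, went from 14.1 to 98.7 CPM (2.80 ± 0.116, adjusted p = 1.32e-14). NCED6, an abscisic acid synthesis gene, went from 5.18 to 1.06 CPM (-2.28 ± 0.367, 1.07e-05). All 10 tandem CCCH zinc finger relatives of SOM were tested, with 3 higher, 7 lower and a median of -1.36. SOM is itself a member of this family and fell with TZF3 (79.5 to 11.1 CPM, -2.84 ± 0.114, 9.29e-15), TZF1 (145 to 24.5 CPM, -2.57 ± 0.135, 4.88e-13) and TZF10 (329 to 71.4 CPM, -2.20 ± 0.0976, 3.62e-14). TZF7 rose from 1.41 to 9.81 CPM (2.77 ± 0.338, 2.55e-07). With library totals 6 of the 10 relatives were lower and 3 higher.

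**Figure D5:**
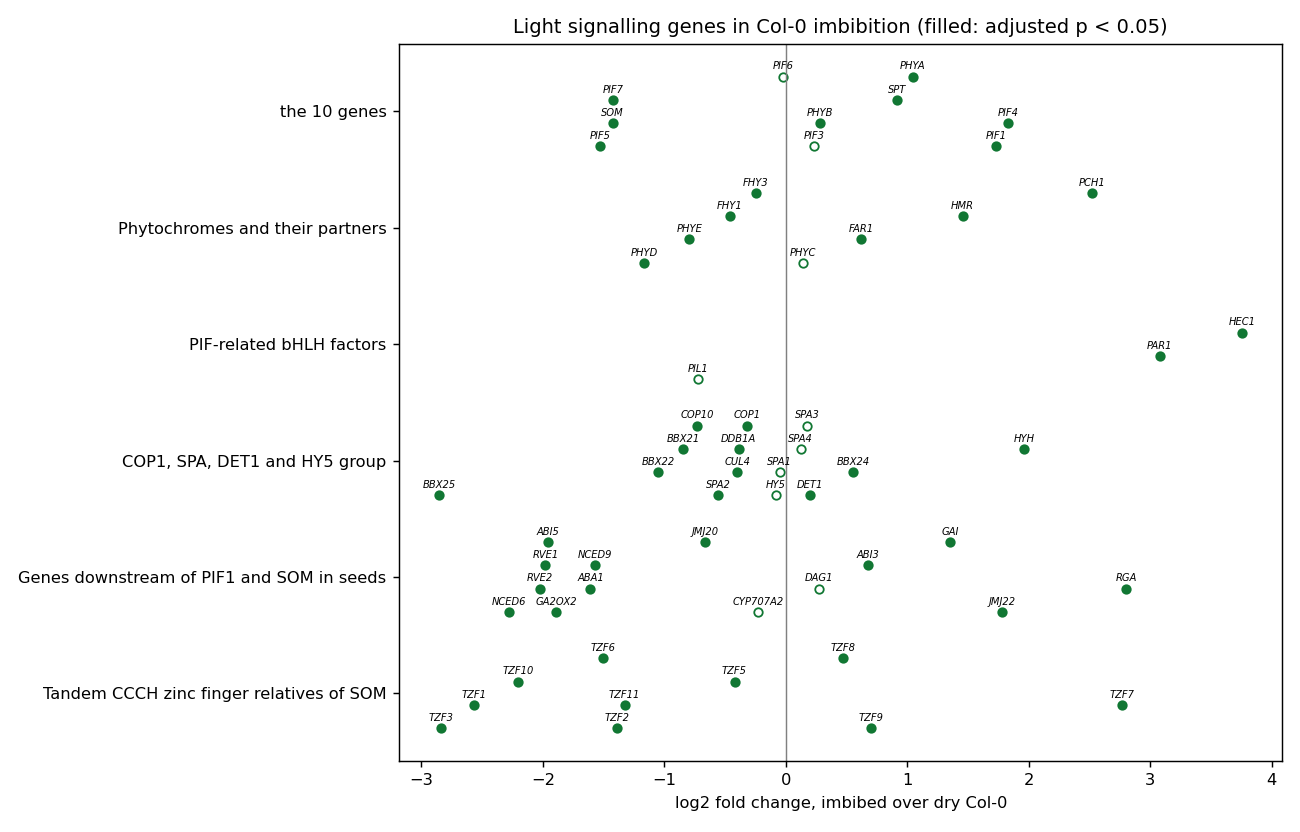
Log2 fold change in Col-0, imbibed over dry, of the 10 genes and of the tested genes of the 5 pathway lists (one row of points per list, spread vertically for legibility). Filled points passed an adjusted p of 0.05. GA3OX1 and GA3OX2, without reads in dry Col-0, are left out. The zinc finger relatives lie mostly left of 0, with TZF3 at -2.84 and TZF7 at 2.77.

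The same lists gave, as higher and lower in the order above, 3 and 3, 2 and 0, 2 and 9, 6 and 8, and 2 and 7 in mkk3-1, and 3 and 3, 2 and 0, 3 and 9, 7 and 8, and 2 and 7 in mpk7_ko3, where 73.3% and 72.5% of all genes passed. With library totals they were 4 and 0, 2 and 0, 7 and 1, 7 and 6, and 3 and 6 in mkk3-1, and 5 and 1, 2 and 0, 7 and 3, 8 and 7, and 3 and 6 in mpk7_ko3, so in both mutants, too, the direction of the COP1, SPA, DET1 and HY5 group depended on scaling. Between mutants and Col-0, many calls were lost without 1 library. In dry mkk3-1 there were 2 calls, both lower and both among the 16 genes of the downstream list, against 2.08% of all genes called (1.4% lower). The DELLA gene GAI was at 27.1 against 38.7 CPM (-0.51 ± 0.106, adjusted p = 0.0124), a call lost without the third dry library of Col-0 (0.0812) or of mkk3-1 (0.0644). The seed regulator ABI3 was at 168 against 219 CPM (-0.39 ± 0.0744, 0.00731) and passed in each alternative.

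In imbibed mkk3-1, 7 of the 16 genes of the downstream list passed (3 higher, 4 lower, median 0.01), against 7.95% of all genes (3.63% higher, 4.32% lower, median -0.02). RVE1 and RVE2, not taken here as targets of PIF1 or SOM, were among the higher ones. The list was chosen with earlier results of these data known, so its share is not independent support. Of 8 phytochromes and partners 1 was higher and of 10 zinc finger genes 2 were lower, and 0 of 15 and 0 of 3 passed in the COP1 group and among the PIF-related factors. PHYD was at 108 against 75.7 CPM (0.51 ± 0.108, adjusted p = 0.00505), and GA3OX2 at 0.794 against 4.12 CPM (-2.37 ± 0.429, 0.00332). RVE1, a clock-related factor that favours dormancy, was at 4.43 against 2.04 CPM (1.12 ± 0.205, 0.0016), and its relative RVE2 at 36.3 against 25.4 CPM (0.51 ± 0.0716, 0.000122). These 4 and ABA1 (0.32, 0.00418) passed in each alternative. RGA (-0.43, 0.00978), GAI (-0.33, 0.0363), the demethylase gene JMJ22 (-0.29, 0.048), TZF2 (-0.47, 0.03) and TZF8 (-0.37, 0.0318) were lower, and lost the call without any one of 2, 6, 5, 5 and 6 of the 6 libraries compared, with adjusted p of up to 0.0942, 0.17, 0.214, 0.138 and 0.128. JMJ22 also lost it with DESeq2 size factors (0.0601), library totals (0.0736), no filter (0.0644) and the replicate number as a block (0.0533), and TZF8 with library totals (0.0642) and no filter (0.0557).

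In dry mpk7_ko3, 2 of 15 genes of the COP1 group and 2 of 16 genes of the downstream list passed, with 2.76% of all genes called (0.653% higher, 2.11% lower). BBX21 (0.35, adjusted p = 0.0203), COP1 (0.27, 0.0347) and RVE2 (0.25, 0.0469) were higher and GAI was lower (27.0 against 38.7 CPM, -0.52 ± 0.106, 0.00886). They lost the call without any one of 4, 5, 5 and 1 of the 6 libraries compared, with adjusted p of up to 0.132, 0.169, 0.135 and 0.0567, and all 4 in the fit of the compared libraries alone. COP1 and RVE2 also lost it with library totals (0.089 and 0.119), without the low-count filter, and without the third mpk7_ko3 library of both states. RVE2 further lost it with upper-quartile factors (0.0504) and with the replicate number as a block (0.0629).

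In imbibed mpk7_ko3, 6 of the 16 genes of the downstream list passed (3 higher, 3 lower, median 0.06), against 9.84% of all genes (5.12% higher, 4.72% lower, median -0.01). RVE1 and RVE2 were again among the higher ones, and the limit on the choice of the list holds here too. In the other lists, 2 of 15 passed in the COP1 group, 1 of 8 phytochromes and partners, 1 of 10 zinc finger genes and 0 of 3 PIF-related factors. RVE1 was at 4.13 against 2.04 CPM (1.02 ± 0.206, adjusted p = 0.00355), RVE2 at 36.8 against 25.4 CPM (0.53 ± 0.0716, 0.000131), BBX21 at 92.1 against 67.7 CPM (0.44 ± 0.0815, 0.00163) and BBX22 at 64.8 against 50.3 CPM (0.37 ± 0.0767, 0.00443). These 4 and ABA1 (0.30, 0.00656) passed in each alternative. PHYD at 99.1 against 75.7 CPM (0.39 ± 0.108, 0.0269) and TZF1 (0.48, 0.0269) were higher, and GAI (-0.37, 0.0163), RGA (-0.33, 0.0402) and JMJ22 (-0.32, 0.0266) lower. Their calls were lost without any one of 3, 4, 2, 5 and 4 of the 6 libraries, with adjusted p of up to 0.164, 0.133, 0.105, 0.265 and 0.112, and that of RGA with the replicate number as a block (0.0512). The calls of PHYD and RGA were also lost without the third mpk7_ko3 library of both states. No gene of the 5 lists passed for the difference between a mutant's response and that of Col-0.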

How the data were processed

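Gene counts are as deposited by the authors. The submitters' processing notes name the TAIR10 genome, featureCounts 2.0.1, HISAT2 2.1.0, fastp 0.20.0 and DESeq2 1.34.0, with no order or role. The strand setting, the counting of fragments or single reads and the use of multi-mapping reads are not given in the sources used here. The deposited coordinates equalled those of RefSeq's TAIR10.1 annotation for 99.95% of 32548 shared genes, and promoter windows were read from that genome.

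Genes were filtered with filterByExpr (minimum count 10), which kept 17758 of 32833. Counts were scaled by TMM and fitted with edgeR 4.0.16 (glmQLFit, glmQLFTest, limma 3.58.1, R 4.3.3) with 1 mean per group over all 18 libraries and 12 residual degrees of freedom. P-values are two-sided and adjusted over all genes (Benjamini-Hochberg, threshold 0.05). SE is the absolute log2 change over the square root of the F statistic, and intervals are 95%. There were 11 comparisons: imbibition in the 3 genotypes, the 3 pairs of genotypes within dry and within imbibed seeds, and the response of either mutant minus that of Col-0. Levels are TMM-scaled CPM, and levels of different genes are compared per kb of the deposited length. The fit was checked on simulated data, where the share of false calls lay above the nominal 0.05 in all 3 comparisons simulated. Each was a single run in which few genes were changed, evenly up and down. It therefore does not test the scaling in imbibition, where most genes were called.

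The 10 genes and the gene lists were chosen with earlier results of these data known. All 10 genes are given in each comparison. From each pathway list up to 4 called genes with the largest change and a mean of at least 1 CPM could be named, and otherwise up to 2 of the most abundant. HEC1, COP1, FHY1 and FHY3 in Col-0 imbibition, and ABA1, GAI and JMJ22 between genotypes where they fall outside that rule, were added after their values were seen. Replicate numbers are in the labels. Deviations of same-numbered libraries correlated at r from -0.154 to 0.278, over 0.1 in 8 of 27 pairs and in all pairs of 0 of 9 comparisons, so the numbers were not taken as pairs. The highest values, 0.203 and 0.278, were those of replicates 2 and 3 between imbibed and dry mpk7_ko3, so a link there is not excluded. Replicate pairs differed by more than sampling noise (chi-square per degree of freedom 7.22 to 34.9), so no library was counted as a repeat. The alternatives comprised each library left out, the replicate number as block, a fit restricted to the libraries compared, no filter on low counts, scaling by library totals, by upper quartiles or by DESeq2 size factors, and the Wald test of DESeq2 1.42.0. Leaving out the third mpk7_ko3 library of both states was chosen after seeing the data.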

Additional observations from a re-analysis of the deposited data

How the results depend on the processing

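Of 110 results (10 genes in 11 comparisons), 109 kept both direction and side of the threshold with DESeq2 size factors, 107 without the low-count filter, 105 with upper-quartile factors, 105 with DESeq2, 103 in fits of the compared libraries alone, 97 with library totals and 110 with the replicate number as a block, which moved no call among the 10 genes. Among list genes called between a mutant and Col-0, the block ended the calls of RGA in imbibed mpk7_ko3 (adjusted p = 0.0512), RVE2 in dry mpk7_ko3 (0.0629) and JMJ22 in imbibed mkk3-1 (0.0533). PIF6 in Col-0 imbibition reversed with library totals, to 0.58. With library totals 4 uncalled results also changed sign, those of PIF7 in mpk7_ko3 imbibition, of PHYB and PIF1 in dry mkk3-1, and of PIF1 between dry mutants. Upper-quartile factors moved the median of all genes in Col-0 imbibition from 0.06 to 0.22 and library totals to 0.66.

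Of the 10 genes, the number called in dry mkk3-1 against Col-0 went from 2 to 1 with library totals. In imbibed mkk3-1 it went from 0 to 2 with upper-quartile factors and with DESeq2, 1 without the filter and 3 in a fit of the compared libraries alone. In dry mpk7_ko3 it went from 1 to 0 with library totals and in a fit of the compared libraries alone, and to 2 without the filter, with DESeq2 and without the third mpk7_ko3 libraries. Between dry mutants it went from 1 to 0 with library totals and in a fit of the compared libraries alone, and to 2 with DESeq2. Between imbibed mutants it went from 0 to 1 without the third mpk7_ko3 libraries. With each library left out in turn, the number ranged from 8 to 9 for imbibition in Col-0 and in mkk3-1, 7 to 8 in mpk7_ko3, 1 to 2 in dry mkk3-1, 0 to 2 in dry and in imbibed mpk7_ko3, 0 to 1 between dry mutants, and was 0 in imbibed mkk3-1, between imbibed mutants and for both differences of responses. Among the single-gene results of these fits, 755 of 780 kept their side of the threshold (56 of them, none called, with the other sign), 20 lost and 5 gained a call. The cause was not tested.

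Over all genes, the calls went from 370 to 655 with DESeq2 and 230 in a fit of the compared libraries alone in dry mkk3-1, from 491 to 770 and 73 in dry mpk7_ko3, and from 1412 to 2887 in the latter fit in imbibed mkk3-1. Between dry mutants they went from 215 to 504 without the filter, 617 with DESeq2, 29 in the fit of the compared libraries alone and 1095 without the third mpk7_ko3 libraries, and between imbibed mutants from 60 to 233, 217, 80 and 454. For the response of mkk3-1 minus that of Col-0 they went from 22 to 90, 162 and 97 in the first 3 of these, and for mpk7_ko3 from 1 to 36, 58 and 1, and to 7 without the third libraries. With each library left out in turn, the calls over all genes ran from 12721 to 12819 for imbibition in Col-0 (13298 with all libraries), 12369 to 12471 in mkk3-1 and 12332 to 12578 in mpk7_ko3. They ran from 130 (without mkk3-1 dry replicate 1) to 409 in dry mkk3-1, from 146 (without Col-0 dry replicate 2) to 575 in dry mpk7_ko3, from 756 (without Col-0 imbibed replicate 1) to 1003 in imbibed mkk3-1, and from 887 (without mpk7_ko3 imbibed replicate 1) to 1386 in imbibed mpk7_ko3. Between dry mutants they ran from 33 (without mpk7_ko3 dry replicate 2) to 882 (without its replicate 3), between imbibed mutants from 18 (without mpk7_ko3 imbibed replicate 1) to 198 (without its replicate 3), and for the differences of responses from 5 to 78 for mkk3-1 and 1 to 19 for mpk7_ko3. The lowest group mean counts were those of PIF5, with 43.7 in imbibed mpk7_ko3, PIF7, with 45.7 in imbibed Col-0, and PIF4, with 54.0 in dry mkk3-1. The part of depth in the calls was not tested.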
